A study of Mus musculus with 15 samples.

Results

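Skeletal muscle contractile and metabolic genes were followed in RNA-seq libraries of mouse conjunctival tissue. The set held 39 of the 55487 genes listed: 7 myosin heavy chains, 4 myosin light chains, 9 thin filament genes, 8 genes of the Z-disc and sarcomere scaffold, 5 genes of calcium handling and 6 genes of muscle metabolism. The 39 genes were chosen because skeletal muscle genes were lower in OVA-challenged than in PBS-challenged conjunctiva of these same libraries, so their values in that contrast are a description, and the calls counted there, from the fit across all genes, support nothing. Of the 39, 38 passed a minimum of 10 counts in 5 libraries and *Myl3* did not.

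The libraries came from conjunctiva of WT mice whose strain is labelled BALC/c (BALB/c in the methods), all of them female and 9 to 12 weeks of age by the methods. Every mouse had been sensitized through the ear skin with OVA together with MC903, a vitamin D analog that induces dermatitis, at 2.5 nmol daily for 7 days. The 3 groups of 5 libraries then differed in the eye drops and the antibody. PBS mice received PBS on the eye and no listed antibody, isotype mice received OVA on the eye and an isotype control antibody, and anti–IL-4Rα mice received OVA on the eye and an antibody that blocks the IL-4 receptor α chain. Antibodies were given at 25 mg/kg on days 10, 14, 18, and 21, and the eye was challenged daily for 7 days. There was no PBS-challenged group with an antibody, so OVA challenge and isotype antibody cannot be told apart in isotype against PBS.

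Skeletal muscle contracts when calcium released from the sarcoplasmic reticulum binds troponin on the thin filament and frees actin for the myosin heads of the thick filament. Fibres are classed by the myosin heavy chain they use, from slow type I to fast types IIa, IIx and IIb. The muscles that move the eye also carry heavy chains that limb muscle largely loses after birth, and a heavy chain of their own, whereas the eyelid holds fast striated fibres next to the conjunctiva.

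Between 48622246 and 87745024 counts were recorded per library, and genes of ocular surface epithelium were at a summed 10069 to 17319 CPM (counts scaled to a common library total) in the 15 libraries. Lacrimal gland secretory genes were at a summed 135 to 67339 CPM in PBS, 167 to 42496 CPM in isotype and 1679 to 203220 CPM in anti–IL-4Rα libraries, so the libraries differed widely in this neighboring tissue. Levels are CPM scaled with TMM factors, which correct for a few genes taking a large part of a library. A fold change is the difference in fitted log2 level with its SE.

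Promoters of 31 of the 39 genes were found in RefSeq (GRCm38.p6), as 37 windows. As a check, bases 11 to 40 after the start stood in a GENCODE M21 transcript of the gene for 26 of the 37. The other windows failed this check and were kept. The 250 bases before the start are printed for *Myh4* and *Ckm*, the most abundant heavy chain and the muscle creatine kinase, for *Pvalb*, whose level differed most between PBS and isotype among the calcium handling genes, and for *Myh13*, whose level followed other libraries than theirs. Capitals mark the E-box CANNTG, the TATA motif TATAAA, and the MEF2 and CArG box motifs, on either strand, where a TATA motif may lie inside an MEF2 motif.
Myh4 (chr11:67237562-67237811, plus strand): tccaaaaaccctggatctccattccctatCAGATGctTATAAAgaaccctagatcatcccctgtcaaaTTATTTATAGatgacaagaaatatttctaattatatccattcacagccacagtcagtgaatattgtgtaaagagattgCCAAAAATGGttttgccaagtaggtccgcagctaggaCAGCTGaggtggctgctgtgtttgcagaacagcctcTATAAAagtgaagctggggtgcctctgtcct
Ckm (chr7:19410844-19411093, plus strand): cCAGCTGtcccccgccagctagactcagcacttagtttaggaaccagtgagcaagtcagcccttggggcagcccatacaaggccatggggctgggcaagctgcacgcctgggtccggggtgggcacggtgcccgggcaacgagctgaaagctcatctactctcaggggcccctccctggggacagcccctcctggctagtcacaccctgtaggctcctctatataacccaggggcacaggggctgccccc
Pvalb (chr15:78206401-78206650, minus strand): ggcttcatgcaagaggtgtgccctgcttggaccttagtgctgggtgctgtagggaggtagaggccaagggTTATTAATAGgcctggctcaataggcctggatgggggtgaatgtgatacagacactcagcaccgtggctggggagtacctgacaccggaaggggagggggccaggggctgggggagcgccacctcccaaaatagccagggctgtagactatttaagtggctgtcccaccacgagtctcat
Myh13 (chr11:67326853-67327102, plus strand): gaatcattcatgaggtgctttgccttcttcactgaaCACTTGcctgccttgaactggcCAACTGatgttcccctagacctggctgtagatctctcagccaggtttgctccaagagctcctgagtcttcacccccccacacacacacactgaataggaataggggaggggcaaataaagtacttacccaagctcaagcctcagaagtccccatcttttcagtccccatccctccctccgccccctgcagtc
An E-box of the form CAGCTG stood in 17 of the 37 windows (45.9%) and in 13% of all 32851 promoter windows. The MEF2 motif stood in 6 of the 37 (16.2%) and in 2.92% of all windows, and the CArG box in 3 of the 37 (8.11%) and in 1.47% of all. TATAAA was found in 8 windows (21.6%, against 12.4% of all), CANNTG in 33 (89.2%, against 66.2%) and the motif CATTCC in 10 (27.0%, against 12.6%). The *Myh4* window held every motif marked, including 1 MEF2 motif and 1 CArG box, and the *Myh13* window held 2 E-boxes and none of the other 3. *Pvalb* has 2 windows, of which the one printed held 1 MEF2 motif and no E-box. These matches describe letters only.

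The 39 genes together made up 12646 to 23638 CPM in PBS, 8025 to 12043 CPM in isotype and 9940 to 14687 CPM in anti–IL-4Rα libraries. Every isotype library was therefore below every PBS library, while the anti–IL-4Rα libraries overlapped both other groups. As a share of all counts, without TMM factors, the genes took 1.36% to 2.52% in PBS, 0.894% to 1.30% in isotype and 0.813% to 1.60% in anti–IL-4Rα libraries. In bulk tissue, fewer muscle cells and less muscle RNA per cell cannot be told apart.

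All 38 genes tested were lower in isotype than in PBS libraries, by a median of -0.74 on the log2 scale, where the median of all 19006 genes tested was -0.01. edgeR called 29 of the 38 lower at an adjusted p under 0.05, beside 7.49% of all genes, and in 16 of the 38 no isotype library reached the lowest PBS library, beside 5.43% of all genes. Nothing is read from these counts, since this contrast chose the genes. They also leaned on a few libraries: PBS replicate 2 was the highest of the 15 libraries for 29 of the 39 genes, and isotype replicate 2 was the lowest isotype library for 28. Without both of them, an alternative chosen after seeing the data, all 38 were still lower and the median was -0.50, but 3 were called. Leaving out PBS replicate 2, PBS replicate 5 or isotype replicate 2 alone left 13, 14 and 14 called.

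**Figure D1:**
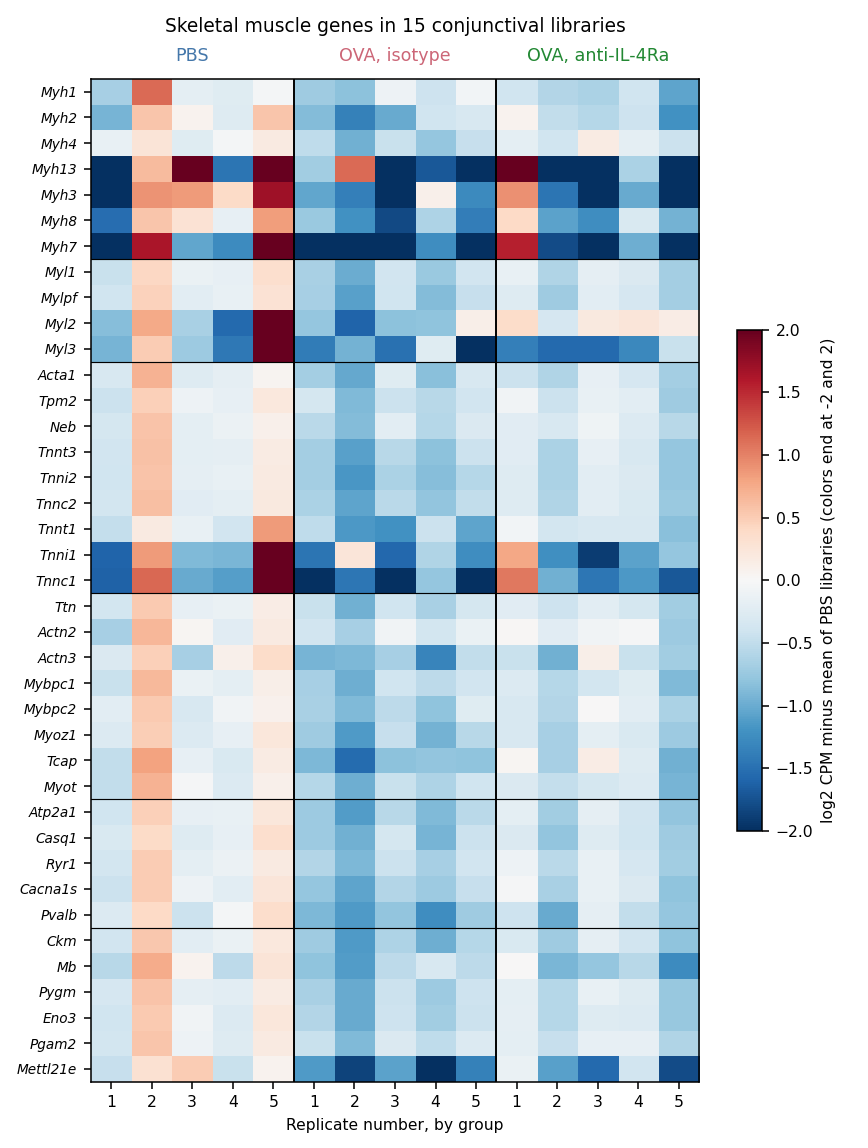
Level of each of the 39 genes (rows, grouped by role with thin lines) in each of the 15 libraries (columns), as log2 CPM minus the mean of the 5 PBS libraries, in color from -2 to 2. Most rows share 1 pattern, highest in PBS replicate 2 and low in isotype replicate 2, while *Myh13*, *Myh3*, *Myh7*, *Tnni1* and *Tnnc1* follow other libraries.

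The heavy chains are the motor proteins that set a fibre's speed. Of the 7, 6 lie in a cluster on chromosome 11 (chr11:67078300-67371586, GRCm38) and *Myh7* on chromosome 14 (chr14:54970684-54994626). Their sequences are much alike, so reads may have been divided unevenly among them. *Myh4*, the type IIb chain, was at 2018, 2657, 1896, 2179 and 2531 CPM in PBS replicates 1 to 5, at 1569, 1152, 1654, 1311 and 1630 CPM in isotype, and at 1961, 1704, 2499, 1965 and 1666 CPM in anti–IL-4Rα replicates. Every isotype value lay below every value of both other groups, whose ranges overlapped. The log2 difference of isotype from PBS was -0.62 ± 0.14 (SE, n = 5 libraries a group).

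*Myh1*, the type IIx chain, was at 324, 1128, 447, 433 and 500 CPM in PBS, 313, 290, 477, 385 and 492 CPM in isotype, and 391, 341, 332, 392 and 248 CPM in anti–IL-4Rα libraries. Apart from PBS replicate 2 the groups covered much the same range, and the log2 difference of isotype from PBS went from -0.53 ± 0.28 to -0.12 without that library. *Myh2*, the type IIa chain, was at 86.1, 241, 173, 136 and 240 CPM in PBS, 89.5, 64.2, 81.5, 125 and 130 CPM in isotype, and 171, 116, 110, 123 and 71.1 CPM in anti–IL-4Rα libraries, again with overlap. PBS replicate 1 was low for both chains.

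A different order held for the chains of extraocular, developing and slow muscle. *Myh13*, the extraocular chain (chr11:67321658-67371586), was at 0.0687, 12, 81.1, 2.79 and 100 CPM in PBS, 4.78, 17.1, 0.101, 2.38 and 0.433 CPM in isotype, and 77.1, 0.392, 0.0583, 4.97 and 1.58 CPM in anti–IL-4Rα libraries. The highest library exceeded the lowest by 1722-fold over the 15 libraries and by 1460-fold within PBS, against 2.31-fold for *Myh4* over all 15. These *Myh13* ratios rest on few counts at the low end, 4 in anti–IL-4Rα replicate 3 and 5 in PBS replicate 1. Such a spread leaves the group difference undefined: isotype minus PBS was -2.96 ± 1.72, and it ranged from -4.37 to -2.25 when single libraries were left out.

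*Myh3*, the embryonic chain, was at 3.84, 101, 97.8, 71.2 and 176 CPM in PBS, 26.3, 21.1, 2.36, 58.2 and 22.7 CPM in isotype, and 103, 19.7, 3.95, 27.1 and 12.5 CPM in anti–IL-4Rα libraries. *Myh8*, the perinatal chain, was at 5.22, 22.3, 18.3, 13.6 and 27.0 CPM in PBS, 8.97, 6.45, 4.33, 9.82 and 5.80 CPM in isotype, and 19.8, 7.14, 6.35, 12.2 and 7.84 CPM in anti–IL-4Rα libraries. For both, PBS replicate 1 was lowest in its group and PBS replicate 5 and anti–IL-4Rα replicate 1 were highest in theirs.

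*Myh7*, the slow type I chain, was at 0.0962, 2.90, 0.425, 0.363 and 10.9 CPM in PBS, 0.0613, 0.164, 0.0842, 0.367 and 0.199 CPM in isotype, and 2.73, 0.241, 0.102, 0.445 and 0.118 CPM in anti–IL-4Rα libraries. Only PBS replicates 2 and 5 and anti–IL-4Rα replicate 1 passed 1 CPM. Its log2 difference of isotype from PBS, -4.04 ± 1.27, was the lowest of all 19006 genes tested. Without PBS replicates 2 and 5 and anti–IL-4Rα replicate 1, also chosen after seeing the data, it was -0.71.

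**Figure D2:**
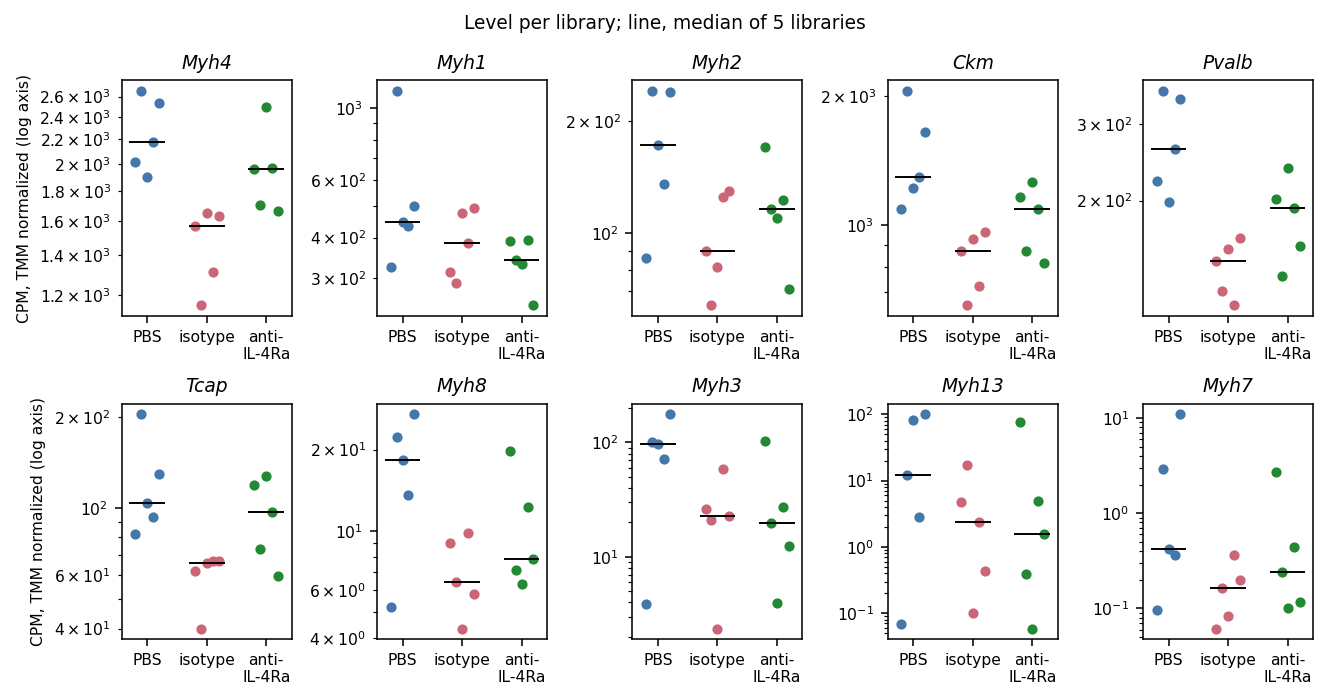
TMM-normalized CPM (log axes that differ between panels) of 10 genes in the 5 libraries of each group, with the median as a line. Over the 15 libraries *Myh4* spans 2.31-fold, *Ckm* 3.16-fold and *Pvalb* 3.11-fold, while *Myh13* spans 1722-fold. The lowest *Myh13* library has 4 counts.

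Per kb of exon, *Myh4* made up 65.5% to 84.0% of the summed heavy chains in PBS, 71.0% to 79.4% in isotype and 73.6% to 85.8% in anti–IL-4Rα libraries. The make-up was thus that of fast muscle in all 3 groups. *Myh1* took 12.8% to 26.4%, 15% to 20.9% and 10.8% to 15%, and *Myh2* between 3.02% and 5.78% in all 15 libraries. *Myh13* reached 2.98% in PBS, 1.09% in isotype and 2.82% in anti–IL-4Rα libraries, and *Myh7* at most 0.217%.

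**Figure D3:**
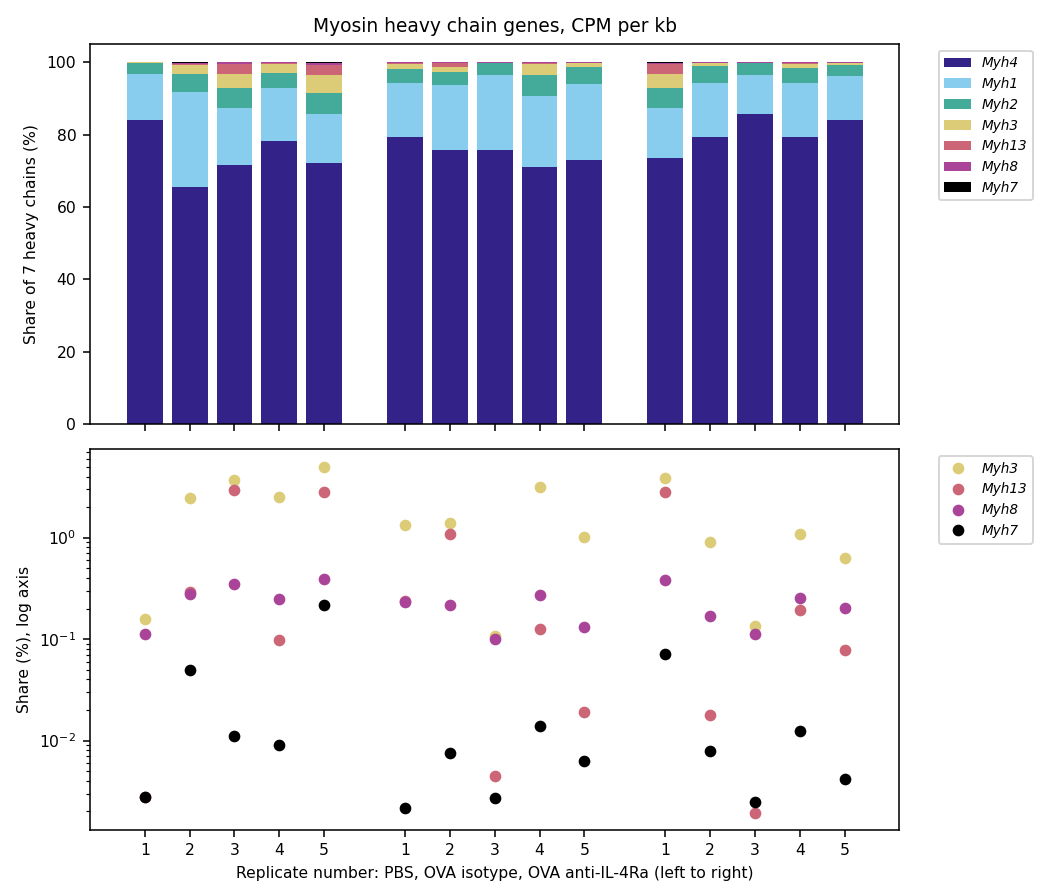
Share of each heavy chain gene in the summed CPM per kb of the 7 (top, linear axis from 0; bottom, the 4 rarer chains on a log axis) in each of the 15 libraries. *Myh4* takes 65.5% to 85.8% throughout, and the share of *Myh13* ranges from 0.00195% to 2.98%.

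The light chains bind the neck of the myosin head. *Myl2*, the slow regulatory light chain, had the largest difference of the 3 tested (-1.43 ± 0.61): it was at 0.674, 2.14, 0.779, 0.401 and 6.29 CPM in PBS, 0.715, 0.389, 0.690, 0.699 and 1.35 CPM in isotype, and 1.62, 0.980, 1.43, 1.48 and 1.39 CPM in anti–IL-4Rα libraries. PBS replicate 5 carried this difference, which was -0.39 without it. *Myl1*, the fast essential light chain, differed least (-0.65 ± 0.17), at 420, 759, 520, 509 and 719 CPM in PBS, 366, 287, 439, 344 and 435 CPM in isotype, and 517, 378, 500, 464 and 356 CPM in anti–IL-4Rα libraries. *Mylpf*, the fast regulatory light chain, stood at 512 ± 130 CPM in PBS and 313 ± 59.5 CPM in isotype (mean ± SD, n = 5), with no overlap. *Myl3*, the slow essential light chain, had 47 counts in PBS replicate 5, 10 in PBS replicate 2 and 0 to 5 in each of the others.

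On the thin filament, fast and slow troponins are separate genes, and the fast set was far the more abundant. The slow troponin C gene, *Tnnc1*, was at 0.151, 1.22, 0.248, 0.229 and 3.36 CPM in PBS, 0.0817, 0.174, 0.0505, 0.297 and 0.108 CPM in isotype, and 1.15, 0.256, 0.175, 0.222 and 0.142 CPM in anti–IL-4Rα libraries. As with *Myh7*, PBS replicates 2 and 5 and anti–IL-4Rα replicate 1 stood above the rest, and the log2 difference of isotype from PBS went from -2.83 ± 0.91 to -0.51 without those 3. Its fast counterpart *Tnnc2* was at 417 ± 122 CPM in PBS and 251 ± 37.2 CPM in isotype. Per kb, *Tnnc1* reached a median of 0.055%, 0.029% and 0.0525% of *Tnnc2* in PBS, isotype and anti–IL-4Rα libraries.

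The other fast troponins, the inhibitory *Tnni2* and the tropomyosin-binding *Tnnt3*, differed between isotype and PBS by -0.80 ± 0.18 and -0.74 ± 0.18, and in both the groups did not overlap. Of the slow forms, *Tnnt1* differed by -0.92 ± 0.25 and *Tnni1* by -1.63 ± 0.78, the latter 0.40 without the 3 libraries named for *Tnnc1*. *Neb* encodes nebulin, which sets thin filament length, and differed least of this role (-0.52 ± 0.16): it was at 187, 350, 206, 218 and 253 CPM in PBS, 162, 130, 203, 159 and 194 CPM in isotype, and 202, 190, 223, 196 and 161 CPM in anti–IL-4Rα libraries. The actin gene *Acta1* (-0.64 ± 0.20) and the tropomyosin gene *Tpm2* (-0.54 ± 0.17) lay close to it.

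In the Z-disc and scaffold, *Tcap*, the cap of titin, differed most (-1.02 ± 0.26). It was at 82.0, 204, 104, 93.4 and 130 CPM in PBS, 62.0, 40, 65.8, 67.0 and 66.8 CPM in isotype, and 119, 73.1, 128, 97.3 and 59.6 CPM in anti–IL-4Rα libraries. Isotype lay below PBS throughout, with replicate 2 far under its group. *Actn2*, an α-actinin of the Z-disc, differed least of all 38 (-0.37 ± 0.21), at 82.7, 206, 134, 111 and 148 CPM in PBS, 100, 82.0, 124, 101 and 119 CPM in isotype, and 132, 112, 124, 128 and 78.5 CPM in anti–IL-4Rα libraries. The fast-fibre α-actinin *Actn3* differed by -0.89 ± 0.23, the calcineurin-binding *Myoz1* by -0.78 ± 0.17, the spring protein gene *Ttn* by -0.58 ± 0.16, the myosin-binding *Mybpc1* and *Mybpc2* by -0.62 ± 0.19 and -0.63 ± 0.17, and the actin crosslinker *Myot* by -0.65 ± 0.19.

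None of the 5 calcium handling genes overlapped between isotype and PBS, where 5.43% of all genes lay apart in this direction. Among the other roles, 1 of 7 heavy chains, 1 of 3 light chains and 3 of 9 thin filament genes lay apart. So did 2 of 8 Z-disc and scaffold genes and 4 of 6 metabolic genes. Nothing is read from these counts, since this contrast chose the genes. *Pvalb* encodes parvalbumin, a calcium buffer of fast fibres, and was at 222, 357, 199, 263 and 343 CPM in PBS, 145, 124, 155, 115 and 164 CPM in isotype, and 202, 134, 238, 192 and 157 CPM in anti–IL-4Rα libraries (isotype minus PBS, -0.98 ± 0.18). *Ryr1*, the calcium release channel, was at 168, 306, 188, 198 and 243 CPM, then 143, 116, 160, 136 and 166 CPM, and then 201, 149, 196, 170 and 132 CPM in the same order of groups (-0.61 ± 0.16). *Atp2a1*, the calcium pump of fast fibres, differed by -0.78 ± 0.18, *Cacna1s*, the voltage sensor, by -0.75 ± 0.19, and *Casq1*, the calcium store protein, by -0.69 ± 0.17.

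Of the metabolic genes, *Mettl21e*, a lysine methyltransferase gene of muscle, differed most (-1.57 ± 0.34) at a low level: 1.0, 1.73, 2.0, 1.01 and 1.46 CPM in PBS, 0.613, 0.358, 0.640, 0.297 and 0.524 CPM in isotype, and 1.26, 0.633, 0.452, 1.06 and 0.378 CPM in anti–IL-4Rα libraries. Isotype and PBS did not overlap. *Pgam2*, the muscle phosphoglycerate mutase, differed least (-0.50 ± 0.17), at 105, 200, 127, 114 and 153 CPM in PBS, 100, 73.9, 112, 95.5 and 112 CPM in isotype, and 119, 98.6, 122, 121 and 89.4 CPM in anti–IL-4Rα libraries. *Ckm*, which buffers ATP, differed by -0.82 ± 0.18, the glycogen phosphorylase *Pygm* by -0.67 ± 0.18, the enolase *Eno3* by -0.64 ± 0.18 and the oxygen store *Mb* by -0.71 ± 0.27.

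After anti–IL-4Rα treatment, 36 of the 38 genes were fitted higher than with isotype antibody, *Myh1* was lower (-0.20 ± 0.28) and *Mb* was at 0.00 ± 0.27. The median was 0.28, beside 0.01 for all genes. edgeR called 0 of the 38 in either direction, beside 14.9% of all genes, and DESeq2 called 2 higher, *Myh4* and *Tcap*, beside 10.1% of all genes. In simulated data for isotype against PBS, 51 of 220 DESeq2 calls were false, against 13 of 176 with edgeR. Those counts were drawn with the spread that edgeR had estimated, and 199 of 18842 genes were changed. The false share of calls made by DESeq2 alone, here and below, was therefore not measured. An unadjusted p under 0.05 was reached by 3 of the 38, beside 32.9% of all genes, and by 1 to 9 when single libraries were left out, with 9 when anti–IL-4Rα replicate 5 was dropped and 1 when either anti–IL-4Rα replicate 1 or isotype replicate 2 was. This comparison shares the isotype libraries with the one that chose the genes.

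*Myh4* came nearest, at 0.42 ± 0.14 (edgeR adjusted p = 0.055, DESeq2 adjusted p = 0.0165). Its anti–IL-4Rα libraries all exceeded its isotype libraries, a separation that 2.35% of all genes showed in this direction. *Tcap* was at 0.66 ± 0.26 (edgeR adjusted p = 0.0962, DESeq2 adjusted p = 0.0485), with overlap, and *Pvalb* at 0.39 ± 0.18 (edgeR adjusted p = 0.148). For *Ckm* the difference was 0.33 ± 0.18 and for *Atp2a1* 0.32 ± 0.18.

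With library totals in place of TMM factors, a choice added after seeing the data, all genes shifted to a median of -0.224, and of the 38 genes 25 were above 0 and 13 below, with a median of 0.06. Relative to the median of all genes, the median of the 38 was 0.27 higher with TMM factors and 0.28 higher with library totals. A change of factors moves all genes by about the same amount, so these values had to be close. Nothing is read from their closeness. Lacrimal gland genes were at a median of 154457 CPM in anti–IL-4Rα and 8330 CPM in isotype libraries, and their part in the result was not tested. Leaving out anti–IL-4Rα replicate 1 turned *Myh13* from 1.73 ± 1.66 to -1.59, *Myh3* from 0.34 ± 0.91 to -0.73 and *Tnni1* from 0.19 ± 0.79 to -0.51.

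Against PBS, anti–IL-4Rα libraries were fitted lower for all 38 genes, with a median of -0.47 beside 0.00 for all genes. edgeR called 0 of the 38, beside 3.72% of all genes, while 21 had an unadjusted p under 0.05, beside 23.1% of all genes. That count was 3, with a median of -0.31, without PBS replicate 2, and it was 6 without anti–IL-4Rα replicate 5, 11 without anti–IL-4Rα replicate 2, 14 without PBS replicate 5 and up to 31 without PBS replicate 1. DESeq2 called 2 lower, *Casq1* (adjusted p = 0.0428) and *Pvalb* (adjusted p = 0.0235), beside 3.83% of all genes. With edgeR *Pvalb* was at -0.58 ± 0.18 (adjusted p = 0.0792) and *Casq1* at -0.51 ± 0.17 (adjusted p = 0.0983), whereas *Myh4* was at -0.20 ± 0.14 (adjusted p = 0.408). Without anti–IL-4Rα replicate 3, *Pvalb* was called (-0.69, edgeR adjusted p = 0.0308), and with library totals in place of TMM factors 25 of the 38 were called lower, beside 24.6% of all genes, whose median was then -0.232. Relative to the median of all genes, the median of the 38 was -0.47 with TMM factors and -0.45 with library totals. These values too had to be close, whatever the factors, and nothing is read from that. The PBS libraries are shared with the comparison that chose the genes.

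**Figure D4:**
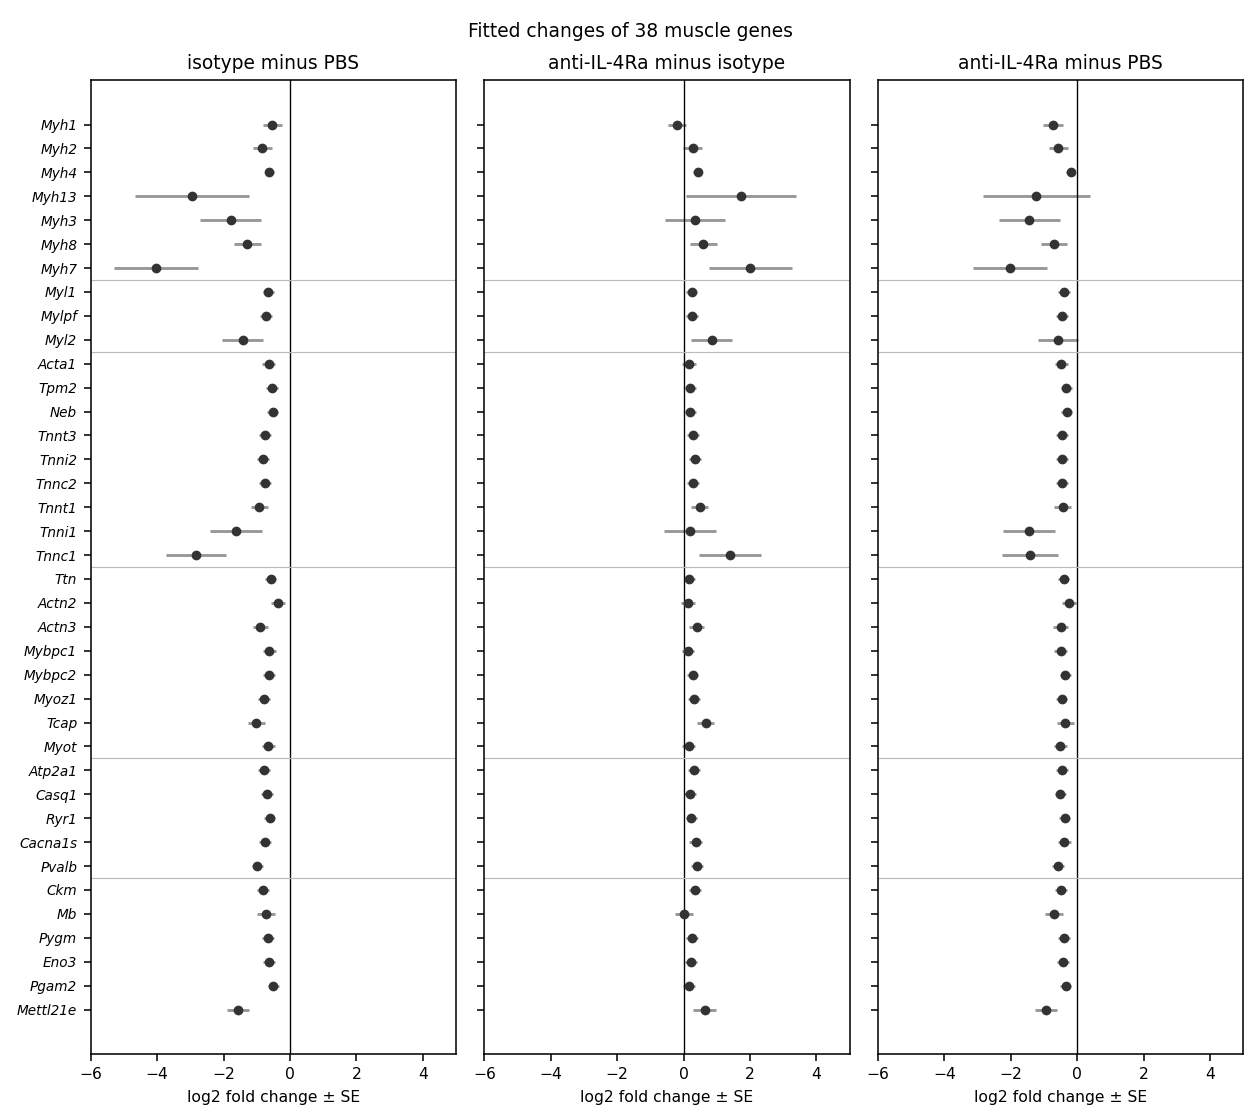
Fitted log2 fold change (points) with its SE (bars) of the 38 genes tested in 3 comparisons, grouped by role with thin lines. All 38 lie below 0 for isotype minus PBS, 36 lie above 0 for anti–IL-4Rα minus isotype (25 with library totals in place of TMM factors, which put the median of all genes at -0.224), and the widest bars are those of *Myh13*, *Myh7*, *Myh3*, *Tnnc1* and *Tnni1*.

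Within the groups the genes varied in more than one way. After each group's mean was removed, 22 of the 38 genes had r over 0.9 with the median of the others across the 15 libraries (median r, 0.935), among them *Tnni2*, *Ryr1*, *Pygm*, *Ckm* and *Atp2a1*. *Myh13* had r = 0.17, *Myh3* 0.29 and *Tnni1* 0.36 with that median. Most like *Myh13* were *Myh8* (r = 0.89), *Myh3* (0.86), *Tnni1* (0.74), *Myh7* (0.70) and *Tnnc1* (0.66), while *Myh4* had r = -0.22. These correlations are descriptions over 15 libraries in which each gene of a library shares that library's dissection and scaling.

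**Figure D5:**
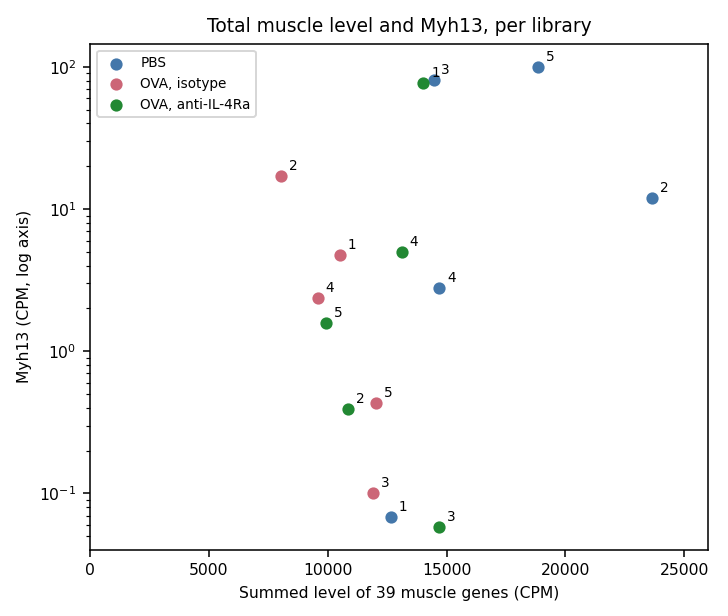
Summed CPM of the 39 genes (x axis, linear) against *Myh13* CPM (y axis, log) in the 15 libraries, numbered by replicate. Libraries of nearly the same sum, such as anti–IL-4Rα replicates 1 and 3 at 14030 and 14687 CPM, differ in *Myh13* from 77.1 to 0.0583 CPM.

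Other muscle genes, in 7 lists of 110 genes that are not among the 39, were read the same way. Of 106 tested, 98 were fitted lower in isotype than in PBS, with a median of -0.57. edgeR called 59 lower and 0 higher, beside 7.49% and 9.53% of all genes. Nothing is read from these counts either. The lists were chosen with earlier results of these data known, and the libraries are the same. Without PBS replicate 2 alone 27 were called, and without PBS replicate 2 and isotype replicate 2 together, 3. Lists of the sarcomere and Z-disc (18 of 27 lower), excitation-contraction coupling (14 of 18) and metabolism (14 of 19) held most of the calls. Examples were *Smpx* (-0.77 ± 0.17), the calcium pump regulators *Sln* (-1.05 ± 0.27) and *Mrln* (-0.87 ± 0.19), the AMP deaminase *Ampd1* (-0.95 ± 0.23) and the mitochondrial creatine kinase *Ckmt2* (-0.92 ± 0.30).

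The calls in the smaller lists stand beside 7.49% of all genes called lower by edgeR. In the sarcolemma and dystrophin complex 9 of 10 genes were fitted lower and 2 were called, among them the sarcoglycan gene *Sgca* (-0.67 ± 0.16). At the neuromuscular junction 9 of 9 were lower and 3 called. These were the acetylcholine receptor subunits *Chrne* (-0.75 ± 0.19) and *Chrnb1* (-0.51 ± 0.13) and the esterase *Ache* (-0.49 ± 0.10). Myogenic regulators were lower in 14 of 14 and called in 6, among them *Myf5* (-1.05 ± 0.28) and *Myod1* (-0.90 ± 0.24). Of the muscle wasting genes 5 of 9 were lower, with a median of -0.03, and 2 were called, *Trim63*, a ubiquitin ligase that rises in atrophy (-0.78 ± 0.18), and the growth inhibitor *Mstn* (-0.76 ± 0.20).

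Between anti–IL-4Rα and isotype libraries 12 of the 106 were fitted lower, and edgeR called 5 higher and 0 lower, beside 6.73% and 8.13% of all genes. Among the 5 were the glucocorticoid-responsive factor *Klf15* (1.33 ± 0.33, edgeR adjusted p = 0.023), *Fbp2* (1.18 ± 0.28, 0.0192), *Six4* (0.74 ± 0.22, 0.0383) and *Cacnb1* (0.40 ± 0.13, 0.0491). Between anti–IL-4Rα and PBS, *Ache* alone was called, at -0.42 ± 0.10 (edgeR adjusted p = 0.0371, beside 1.44% of all genes called lower).

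Markers of other cell types were also compared between isotype and PBS. Over all genes, edgeR called 7.49% lower and 9.53% higher, and 1 call in a short list is not read as a difference. Smooth muscle held 0 of 8 called by edgeR, with *Acta2* at -0.32 ± 0.28 and *Myh11* at -0.42 ± 0.30. In this list 6 of 8 genes were fitted lower, with a median of -0.35. Its sum was 732 to 1736 CPM in PBS and 631 to 1297 CPM in isotype. Leukocyte genes *Cd4* (1.70 ± 0.32), *Siglecf* (1.51 ± 0.38) and *Ptprc* (1.05 ± 0.21) were called higher, 3 of 8, at a summed 355 to 428 CPM in PBS and 385 to 632 CPM in isotype. Of the Schwann cell genes 6 of 6 were fitted lower, with a median of -0.39, and 2 were called, among them *S100b* (-0.59 ± 0.19). Their sum was 239 to 351 CPM in PBS and 171 to 271 CPM in isotype. Fat cell genes were lower in 6 of 6, with a median of -0.71 beside -0.74 for the 38 muscle genes. The sum of the fat cell genes was 125 to 396 CPM in PBS, 107 to 213 CPM in isotype and 194 to 367 CPM in anti–IL-4Rα libraries. Among them 1 was called, the brown fat gene *Ucp1* (-3.45 ± 1.13, edgeR adjusted p = 0.0496). It was low and uneven, at 0.344 to 11.7 CPM in PBS and 0.151 to 0.839 CPM in isotype, with overlap. Of the list of cardiac genes, *Myl7* (-0.90 ± 0.25) and *Tnnt2* (-0.55 ± 0.17) were called lower, 2 of 6. *Actc1* (-2.10 ± 0.85) was not called and ranged from 3.46 to 77.4 CPM in PBS. *Nppa* had at most 1 count in any library, so no cardiac cell type is read from this list. *Krt14* was called higher (0.55 ± 0.11), 1 of 9 in the epithelial list, and of the fibroblast list *Col3a1* was higher (0.77 ± 0.19) and *Dcn* lower (-0.42 ± 0.09). No lacrimal gland gene of 8 and no meibomian gland gene of 6 was called by edgeR. Meibomian genes were fitted lower in 6 of 6, with a median of -0.24, and lacrimal genes in 0 of 8, with a median of 0.22. The part of these cell types in the muscle values was not tested.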

How the data were processed

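RNA of mouse conjunctiva was sequenced from a stranded mRNA library in 15 libraries, 5 a group. Reads were mapped by the authors to mouse B38 under the Ensembl.R100 gene model in Array Studio. Their deposited table gives estimated counts without normalization. The methods name 2 outliers without saying which, and all 15 libraries were used here. These were rounded to whole numbers. A gene was tested when 5 libraries or more reached 10 counts, and edgeR 4.0.16 (TMM factors, quasi-likelihood test, two-sided, Benjamini-Hochberg over all 19006 genes, adjusted p under 0.05) was fitted with a term for each group. DESeq2 1.42.0 and limma 3.58.1 on log2(FPKM + 1) served as alternatives. Genes were located with GENCODE M21. The steps were tested on simulated data.

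The 39 genes, the other lists and the tests were chosen with earlier results of these data known. All 39 were named, with every library's value for the heavy chains and for the genes of largest and smallest change in each role, and other lists by their called genes, at most 3 a list, or else the 2 most abundant. Some genes that this rule names are not reported here. Genes named for anti–IL-4Rα were those called there or nearest to it, chosen after their values were seen. Titles number a mouse for each library, and p-values measure the spread between libraries.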

Additional observations from a re-analysis of the deposited data

Results flagged for a closer look

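In 4 of the 123 groups of 5 libraries examined, 1 library lay far from the others, where chance would give about 6.2. *Myh3* was lowest in PBS replicate 1, at 1.95 on the log2 CPM scale. *Myl3* was highest in anti–IL-4Rα replicate 5, at -3.25, from 3 counts. *Tnnc1* was highest in anti–IL-4Rα replicate 1, at 0.244, and *Tcap* was lowest in isotype replicate 2, at 5.32.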

How the results depend on the processing

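Direction held for all 38 genes between isotype and PBS in the 8 alternative fits and the 15 fits that left out 1 library, and for the summed level of the 39 genes. Values that moved follow, with the cause not tested. Between isotype and PBS, 3235 genes, 29 of the 38 muscle genes, 59 other muscle genes and 11 markers of other cell types were called. DESeq2 called 17 markers and a fit without a filter 7. With library totals alone the 4 counts were 1153, 14, 27 and 5, without PBS replicate 2 and isotype replicate 2 they were 1160, 3, 3 and 4, and without PBS replicates 2 and 5 and anti–IL-4Rα replicate 1 they were 480, 0, 0 and 0, with *Myl2* at 0.30 and *Tnni1* at 0.40 (these 3 settings were chosen after seeing the data). Leaving out 1 library at a time gave 1863 to 3936 genes, 13 to 31 muscle genes, 27 to 72 other muscle genes and 6 to 14 markers, where the moved counts were at most 2098, 14, 30 and 7.

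Between anti–IL-4Rα and isotype, 2826 genes, 5 other muscle genes and 8 markers were called. DESeq2 called 8 other muscle genes and 13 markers, and limma 2 and 5. Without a filter the 3 counts were 1749, 2 and 4, with only the 2 groups compared 675, 1 and 1, without PBS replicate 2 and isotype replicate 2 they were 844, 1 and 1, and without the 3 libraries 464, 0 and 1, with *Myh13* at -1.57, *Myh3* at -0.73 and *Tnni1* at -0.51. Library totals alone gave 6166 genes and 12 other muscle genes and shifted the median of all genes to -0.224. Newly below 0, but above that median, were *Acta1* (-0.06), *Tpm2* and *Neb* (each -0.02), *Tnni1* (-0.09), *Ttn* (-0.05), *Actn2* and *Mybpc1* (each -0.10), *Myot* (-0.08), *Casq1* (-0.04), *Eno3* (-0.01) and *Pgam2* (-0.07). Leaving out 1 library gave 882 to 4206 genes (moved counts up to 1446), 0 to 6 other muscle genes (moved counts up to 3) and 2 to 9 markers (moved counts up to 5). Over these fits *Myh13* ran from -1.59 to 3.14, *Myh3* from -0.73 to 0.87 and *Tnni1* from -0.51 to 0.65, each lowest without anti–IL-4Rα replicate 1.

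Between anti–IL-4Rα and PBS, 707 genes, 0 muscle genes, 1 other muscle gene and 3 markers were called. DESeq2 called 1966, 2, 5 and 6, and library totals alone 5023, 25, 62 and 7. A fit without a filter called 327 genes, limma 1 marker, and the fit of only the 2 groups compared 0 other muscle genes. Without PBS replicate 2 and isotype replicate 2, 128 genes, 0 other muscle genes and 0 markers were called, and without the 3 libraries 19, 0 and 0, with *Myl2* at 1.09 and *Actn2* at 0.02. Leaving out 1 library gave 82 to 2029 genes, 0 to 1 muscle genes, 0 to 5 other muscle genes and 0 to 4 markers (moved counts 0 to 1), the most genes without anti–IL-4Rα replicate 3, and *Myl2* ran from -0.84 to 0.46, the latter without PBS replicate 5.

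Replicate numbers are shared by the groups, but nothing says that they pair the samples. The correlations of same-numbered libraries ran from -0.385 to 0.454. A library correlated best with its own number in 2 of 5 cases between PBS and isotype and in 1 of 5 between isotype and anti–IL-4Rα. Between PBS and anti–IL-4Rα it was also 1 of 5. With the replicate number as a block, 2115 genes, 10 muscle genes, 17 other muscle genes and 7 markers were called between isotype and PBS, 1859 genes, 2 other muscle genes and 4 markers between anti–IL-4Rα and isotype, and 312 genes and 0 other muscle genes between anti–IL-4Rα and PBS. From raw counts in place of counts per kb, *Myh8* took 0.531%, 0.366% and 0.428% of the heavy chains in PBS, isotype and anti–IL-4Rα libraries. Upper quartile factors moved the higher share of all calls between isotype and PBS from 56.0% to 44.5%, and limma gave 43.9%. In simulated data of this size for isotype against PBS, edgeR recovered 74.0% of 2-fold and 89.9% of 3-fold changes over 18842 genes. Of the calls made there, 13 of 176 were false with edgeR and 51 of 220 with DESeq2, on counts drawn with the spread that edgeR had estimated. Depth limited *Myl3*, *Tnnc1* and *Myh7* most.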
